A study of Mus musculus with 8 samples.

Results

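The 9 genes described here encode inward-rectifier potassium channels other than the G protein-gated (GIRK) type, together with both sulfonylurea receptors. They are Kcnj2, Kcnj8, Kcnj11, Kcnj12, Kcnj14, Kcnj15 and Kcnj16, which encode pore-forming Kir subunits, and Abcc8 and Abcc9, which encode SUR1 and SUR2. They were picked by name from the 49315 genes of the table, not by any measured value, to ask whether another channel takes up the place of a lost GIRK subunit. All 9 were in the table, and 7 had enough counts to be tested. Kcnj14 and Kcnj16 were below the low-count filter.

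RNA was sequenced from the femoral diaphysis of male C57BL6 mice aged 24 weeks. The tested mice were Girk3 KO (Girk3-/-), written KO below, and the comparison mice were WT, with 4 libraries of each. Girk3 is the GIRK subunit encoded by Kcnj9. The labels give neither the deleted stretch of the gene nor whether both genotypes came from shared litters, and they do not restrict the deletion to any cell type. The marrow was flushed out, but markers of marrow cells were still found in the RNA. Other cell types of the shaft and any muscle left on it remain in it too.

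As background, inward rectifiers pass potassium more easily into the cell than out of it and hold the membrane near its resting potential. GIRK channels open when a Gi/o-coupled receptor releases G protein βγ subunits. Kir2 channels are open constitutively, and KATP channels, built from Kir6 pores and SUR regulators, open when cellular ATP falls. KATP channels are best known from pancreatic beta cells, where they gate insulin release, and from cardiac, skeletal and smooth muscle.

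Each Kir pore has a selectivity filter, the short loop that lets potassium through. The coding sequence around it is shown for 6 of the Kcnj genes because it separates the KATP pores from the others and shows how far the coding sequences, and hence reads from them, can be told apart. Each line gives 45 bases, 5′ to 3′, from the GENCODE M21 transcript (GRCm38) with the longest coding sequence, with the codons of the filter in capitals.
Kcnj11: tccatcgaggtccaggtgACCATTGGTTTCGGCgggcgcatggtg
Kcnj8: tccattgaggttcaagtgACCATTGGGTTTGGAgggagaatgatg
Kcnj2: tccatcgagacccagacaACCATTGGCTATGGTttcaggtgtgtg
Kcnj14: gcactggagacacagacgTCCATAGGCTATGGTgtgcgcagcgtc
Kcnj15: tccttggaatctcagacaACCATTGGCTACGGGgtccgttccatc
Kcnj16: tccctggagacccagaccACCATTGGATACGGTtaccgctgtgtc
The fourth codon of the capitals encodes phenylalanine in the KATP pores Kcnj11 and Kcnj8 and tyrosine in the other 4 shown. The first encodes serine in Kcnj14 and threonine in the other 5 shown. Kcnj8 and Kcnj11 shared 36 of the 45 bases, as did Kcnj2 and Kcnj16, and the least alike pair shown, Kcnj8 and Kcnj16, shared 22. Over whole transcripts the longest stretch of identical bases on the same strand was 78 between Kcnj15 and Kcnj16, and at most 32 in the other 35 pairs of members. The read length is not given in the sources used here, so reads of Kcnj15 and Kcnj16 that lie in that stretch may not have been assigned with certainty.

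The genes lie in 3 neighbouring pairs and 3 single places (GRCm38), none of them on chromosome 1 with Kcnj9. Kcnj8 (chromosome 6, 142564837 to 142571614) is 16.2 kb from Abcc9 (142587862 to 142702315), both on the minus strand. Kcnj11 (chromosome 7, 46093953 to 46100764) is 3.76 kb from Abcc8 (46104523 to 46180033), also both on the minus strand. Kcnj16 (chromosome 11, 110968033 to 111027968) is 38.2 kb from Kcnj2 (111066164 to 111076821), both on the plus strand. Kcnj12 lies elsewhere on chromosome 11 (61022564 to 61071131), Kcnj14 on chromosome 7 (45816460 to 45824782) and Kcnj15 on chromosome 16 (95257558 to 95300260). In the annotated transcripts used above, the coding sequences of Kcnj2, Kcnj11 and Kcnj16 lay in 1 exon each, whereas those of Abcc8 and Abcc9 were spread over 39 and 38 exons. Annotated antisense genes shared 5.27% of the exon bases of Kcnj15 and 1.89% of those of Abcc9, and no other member shared exon bases with another gene. The strand setting of the counting is not known, so antisense reads could be included in those 2 counts.

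The libraries held 30087749 to 36553713 counts. Levels are given as CPM, the counts of a gene divided by library size in the usual way, here with library sizes scaled by TMM factors of 0.831 to 1.18. Osteoblast and osteocyte markers were present, with Col1a1 at 6894 ± 1940 CPM in KO and 8119 ± 3187 CPM in WT and Dmp1 at 72.5 ± 25.1 CPM in KO and 94.2 ± 35.4 CPM in WT (SD, n = 4 each). Skeletal muscle markers were prominent, the 20 genes of that list taking 12.1% to 20.3% of the CPM of the KO libraries and 7.67% to 14.5% of those of the WT libraries. Marrow RNA was also present, with the 8 erythroid markers summing to 4449 to 8925 CPM in KO and 3672 to 11670 CPM in WT. KO replicate 4 and WT replicate 4 were the highest and lowest for muscle and also lay at opposite ends of the first principal component. Kcnj9 itself had 0, 8, 4 and 7 counts in KO replicates 1 to 4 and 7, 6, 6 and 23 counts in WT replicates 1 to 4. Since the deleted part is not stated, those counts do not check the genotypes.

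No member differed between the genotypes past the threshold. In a quasi-likelihood test in edgeR, with p-values adjusted by the Benjamini-Hochberg method over 17450 genes, 0 of the 7 tested members had an adjusted p under 0.05, where 0.0115% of all genes did. At an unadjusted p under 0.05 there was 1 member, Kcnj8, against 18.2% of all genes tested. DESeq2 and limma-voom also called 0 of 7, while calling 6.45% and 4.04% of all genes. The CPM of KO and WT libraries overlapped for all 9 members, whereas 13.1% of tested genes had groups that did not overlap. Of the 7 members, 4 had a positive and 3 a negative log2 fold change; their median was 0.03, beside -0.01 over all genes tested.

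**Figure D1:**
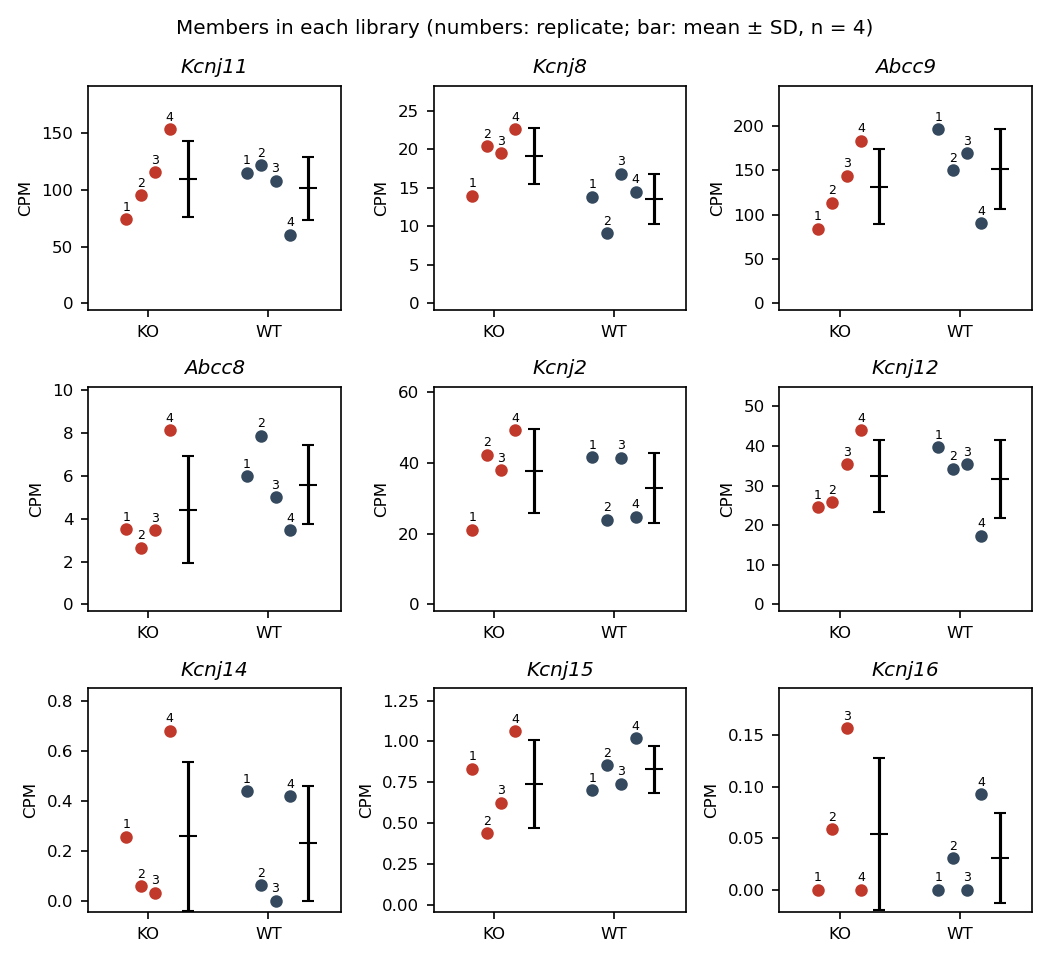
CPM of each member in the 4 KO (red, left) and 4 WT (dark, right) libraries, numbered by replicate, with mean ± SD beside each group; each panel has its own axis. KO replicate 4 is the highest of the 8 libraries for Kcnj11, Kcnj12, Kcnj2, Kcnj8 and Abcc8 among others, and WT replicate 4 is the lowest for Kcnj11 and Kcnj12.

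Kcnj11, which encodes Kir6.2, the KATP pore of beta cells and striated muscle, had the highest level per exon length of the 9. It was at 74.2, 95.1, 115 and 153 CPM in KO replicates 1 to 4 and at 115, 122, 108 and 60.4 CPM in WT replicates 1 to 4. The extremes were both replicates 4. Apart from these, KO replicates 1 and 2 lay below WT replicates 1 to 3, and KO replicate 3 lay among those WT libraries. The means were 109 ± 33.6 CPM in KO and 101 ± 27.9 CPM in WT (SD, n = 4 each). The log2 fold change was 0.11 (SE 0.26, edgeR adjusted p = 0.866), with a 95% interval of 0.724-fold to 1.61-fold. Its sign was not fixed: it was -0.09 without KO replicate 4, -0.08 without WT replicate 4 and -0.28 without both.

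Kcnj8, which encodes Kir6.1, the KATP pore of vascular smooth muscle and pericytes, had the smallest p of the 9. It was at 14.0, 20.5, 19.5 and 22.6 CPM in KO replicates 1 to 4 and at 13.8, 9.12, 16.9 and 14.5 CPM in WT replicates 1 to 4. KO replicates 2 to 4 lay above every WT library, and KO replicate 1 lay among them. The means were 19.1 ± 3.66 CPM in KO and 13.6 ± 3.25 CPM in WT (SD, n = 4 each). The log2 fold change was 0.49 (SE 0.20), equal to 1.41-fold, with a 95% interval of 1.03-fold to 1.93-fold. The edgeR unadjusted p was 0.0349 and the adjusted p was 0.236, and Kcnj8 ranked 2579 of 17450 genes by p. Over 19 other settings its log2 fold change stayed between 0.34 and 0.66, with adjusted p values from 0.0908 to 0.519, so it passed in none of them.

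Markers of the cells in which Kcnj8 is best known were measured in the same libraries. The 10 pericyte markers summed to 471 to 566 CPM in KO and 442 to 601 CPM in WT (two-sided exact permutation p = 0.686), with Rgs5, the highest of them, at 310 ± 30.5 CPM in KO and 313 ± 52.9 CPM in WT (SD, n = 4 each). The log2 fold change was positive for 6 of the 10, its median was 0.04, and 0 were called. The 8 smooth muscle markers summed to 590 to 845 CPM in KO and 411 to 732 CPM in WT (two-sided exact permutation p = 0.514). Their highest gene, Synpo2, is also expressed in skeletal muscle. The next, Smtn, was at 86.2 ± 6.49 CPM in KO and 85.0 ± 5.83 CPM in WT (SD, n = 4 each). Of the 7 tested smooth muscle markers, 7 had a positive log2 fold change (median 0.14), and 0 were called. Per 100 CPM of the pericyte list, Kcnj8 was at 3.65 ± 0.46 CPM in KO and 2.55 ± 0.647 CPM in WT (SD, n = 4 each), and the groups overlapped. Per 100 CPM of the smooth muscle list it was at 2.86 ± 0.41 CPM in KO and 2.39 ± 0.893 CPM in WT. Per 10000 CPM of the skeletal muscle list it was at 1.32 ± 0.269 CPM in KO and 1.19 ± 0.515 CPM in WT (SD, n = 4 each). The groups overlapped on these lists too. The markers of neither the pericyte nor the smooth muscle list were at 0 in all libraries. In bulk RNA, fewer cells of a type and less RNA per cell cannot be told apart.

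Abcc9, which encodes SUR2, the regulatory subunit of muscle KATP channels, had the highest CPM of the 9. It was at 84.2, 114, 144 and 183 CPM in KO replicates 1 to 4 and at 196, 149, 169 and 90.3 CPM in WT replicates 1 to 4. The lowest and highest libraries of each group spanned nearly the same range. The means were 131 ± 42.3 CPM in KO and 151 ± 44.7 CPM in WT (SD, n = 4 each), and the log2 fold change was -0.21 (SE 0.27, edgeR adjusted p = 0.746), with a 95% interval of 0.568-fold to 1.32-fold. With 1 library left out, that value lay between -0.41 (without KO replicate 4) and -0.05 (without KO replicate 1). SUR2 is made in a striated muscle form and a smooth muscle form by alternative splicing, which counts per gene do not separate.

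Abcc8, which encodes SUR1, the partner of Kir6.2 in beta cells and neurons, was low. It was at 3.50, 2.65, 3.45 and 8.11 CPM in KO replicates 1 to 4 and at 5.98, 7.87, 4.99 and 3.46 CPM in WT replicates 1 to 4. KO replicates 1 to 3 lay at the level of the lowest WT library or below it, and KO replicate 4 lay above all WT libraries. The means were 4.43 ± 2.49 CPM in KO and 5.58 ± 1.85 CPM in WT (SD, n = 4 each), with a log2 change of -0.34 (SE 0.37; adjusted p in edgeR = 0.684). With 1 library left out, the log2 fold change lay between -0.80 (without KO replicate 4) and -0.12 (without WT replicate 2), and it was -0.16 without KO replicate 2. It was -0.12 with the trends on exon length and GC content removed. The adjusted p did not pass in any of the 19 other settings, the lowest being 0.0504 in edgeR without both replicates 4.

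The KATP subunits were also compared within each library, as ratios of counts per exon length; these ratios were chosen after the values were seen and have no test. Kcnj8 per Kcnj11 was 0.213 to 0.310 in KO, with a median of 0.258, and 0.108 to 0.346 in WT, with a median of 0.200. Abcc9 per Kcnj8 was 1.69 to 2.47 in KO and 1.90 to 4.99 in WT. That ratio was lower in every KO library than in WT replicates 1 to 3, and the groups overlapped through WT replicate 4. Abcc9 per Abcc8 was 21.8 to 41.5 in KO and 18.4 to 32.7 in WT, so transcripts of SUR2 outnumbered those of SUR1 more than 18-fold in each of the 8 libraries on this scale.

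Kcnj2, which encodes Kir2.1, the strong inward rectifier that sets the resting potential of heart and skeletal muscle, was at 21.1, 42.3, 37.9 and 49.1 CPM in KO replicates 1 to 4. In WT replicates 1 to 4 it was at 41.6, 23.9, 41.5 and 24.8 CPM. Each group held both low and high libraries. The means were 37.6 ± 11.9 CPM in KO and 32.95 ± 9.92 CPM in WT (SD, n = 4 each), with a log2 change of 0.19 (SE 0.27; adjusted p in edgeR = 0.762) and a 95% interval of 0.751-fold to 1.74-fold. With 1 library left out, that value lay between 0.04 (without KO replicate 4) and 0.39 (without KO replicate 1). In humans, loss of KCNJ2 function causes Andersen-Tawil syndrome, which affects the skeleton as well as heart and muscle.

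Kcnj12, which encodes Kir2.2, a close relative of Kir2.1, was at 24.6, 25.8, 35.4 and 43.9 CPM in KO replicates 1 to 4 and at 39.6, 34.3, 35.4 and 17.3 CPM in WT replicates 1 to 4. As for Kcnj11, the extremes were both replicates 4, and Kcnj11 per Kcnj12, per exon length, ranged from 2.25 to 2.76 in KO and 2.168 to 2.66 in WT. The means were 32.4 ± 9.04 CPM in KO and 31.7 ± 9.84 CPM in WT (SD, n = 4 each), with a log2 change of 0.03 (SE 0.26; adjusted p in edgeR = 0.965) and a 95% interval of 0.682-fold to 1.53-fold. Its sign turned in 8 of 19 other settings, among them without KO replicate 3 (-0.01), without KO replicate 4 (-0.14) and without WT replicate 4 (-0.18).

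The other 3 Kir genes were at or near the limit of detection. Kcnj15, which encodes Kir4.2, had 26, 15, 20 and 28 counts in KO replicates 1 to 4 and 24, 28, 22 and 44 counts in WT replicates 1 to 4, or 0.741 ± 0.267 CPM in KO and 0.830 ± 0.142 CPM in WT (SD, n = 4 each). Its log2 fold change was -0.18 (SE 0.32, edgeR adjusted p = 0.819) and was 0.0026 without KO replicate 2. Kcnj14, which encodes Kir2.4, had 8, 2, 1 and 18 counts in KO replicates 1 to 4 and 15, 2, 0 and 18 counts in WT replicates 1 to 4. Low and high libraries of Kcnj14 occurred in both genotypes. Kcnj16, which encodes Kir5.1, a subunit that works in heteromers with Kir4 channels, had 7 counts in all in the KO libraries and 5 in the WT libraries. In a fit without the low-count filter, the 95% intervals were 0.205-fold to 5.31-fold for Kcnj14 and 0.257-fold to 9.68-fold for Kcnj16, so for both genes only very large differences would have been detectable at this depth.

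Per kb of exon, the means of the 9 genes had the same order in both genotypes except for Kcnj2 and Kcnj8, at 6.91 and 7.51 CPM per kb in KO and 6.05 and 5.33 CPM per kb in WT. Over the 8 libraries Kcnj11 was at 28.7 ± 7.86, Abcc9 at 16.9 ± 4.98, Kcnj12 at 11.7 ± 3.19, Kcnj2 at 6.48 ± 1.92 and Kcnj8 at 6.42 ± 1.71 CPM per kb (SD, n = 8). The remaining genes were far lower, with Abcc8 at 0.618 ± 0.262, Kcnj15 at 0.124 ± 0.0323, Kcnj14 at 0.0896 ± 0.0915 and Kcnj16 at 0.0108 ± 0.0146 CPM per kb (SD, n = 8). Kcnj11 exceeded Abcc9, Abcc9 exceeded Kcnj12 and Kcnj12 exceeded Kcnj2 in 8 of 8 libraries, although the ranges over libraries overlapped between these neighbours. Kcnj2 and Kcnj8 could not be ordered, since Kcnj2 was the higher in 4 of 8 libraries. The ranges of Kcnj8 and Abcc8 did not overlap, nor did those of Abcc8 and Kcnj15. Kcnj15, Kcnj14 and Kcnj16 overlapped from one to the next. The order was the same per kb of the transcript with the longest coding sequence.

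**Figure D2:**
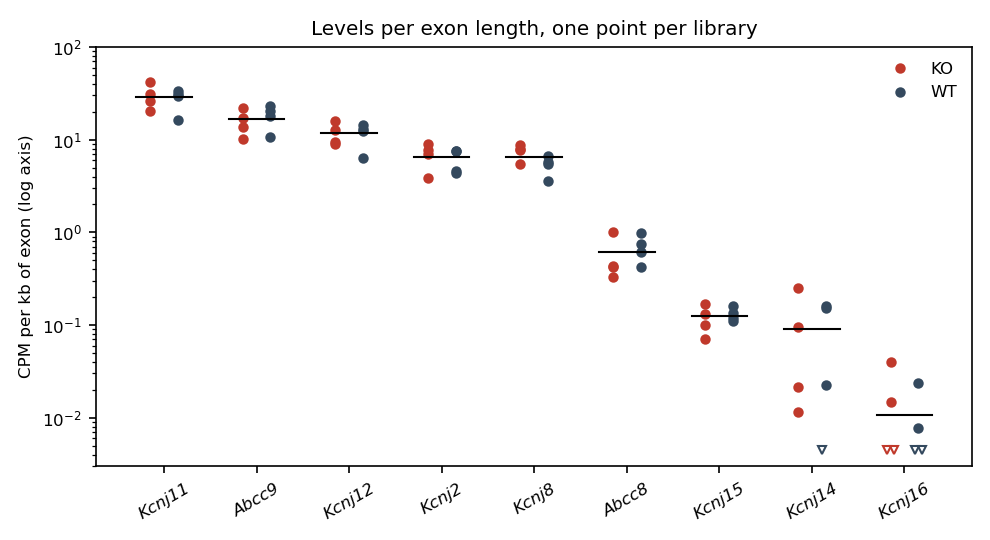
CPM per kb of exon on a log axis for each member, highest mean at the left, with 1 point per library (KO red, WT dark), the mean over 8 libraries as a line, and open triangles for libraries with 0 counts. Kcnj11 to Kcnj8 lie at 3 to 42 CPM per kb and the other 4 genes below 1.1.

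Of the members set against muscle RNA, Kcnj11 and Kcnj12 narrowed most in their spread over the libraries. Kcnj11, Kcnj12 and the muscle list were all highest in KO replicate 4 and lowest in WT replicate 4. Within the genotypes, Abcc9 was also highest of the KO libraries in replicate 4 and lowest of the WT libraries in replicate 4. Across the 8 libraries the highest CPM was 2.53 times the lowest for Kcnj11 and for Kcnj12, and this spread shrank to 1.46 times for each once they were expressed per 10000 CPM of the muscle list. Per CPM of the smooth muscle list it shrank to a similar extent, to 1.596 times for Kcnj11 and 1.40 times for Kcnj12. Synpo2, which is also expressed in skeletal muscle, held 443 of the mean 671 CPM of that list in KO and 402 of 598 CPM in WT. These quotients therefore cannot set skeletal apart from smooth muscle. Per muscle CPM the spread was 2.03 times for Kcnj2, against 2.33 times in plain CPM, 2.10 against 2.32 times for Abcc9 and 2.61 against 3.06 times for Abcc8. For Kcnj8 it was 2.85 times per muscle CPM and 2.48 times in plain CPM. Per CPM of the smooth muscle list the spread was 1.87 times for Kcnj2 and for Abcc9, 3.09 times for Abcc8 and 2.35 times for Kcnj8. This spread takes both genotypes together, so it does not measure how closely a gene follows muscle within each. The 20 muscle markers summed to 120500 to 203300 CPM in KO and 76700 to 144900 CPM in WT (two-sided exact permutation p = 0.486). The log2 fold change was positive for 13 of them (median 0.24), 0 were called and none was at 0 in all libraries. Their highest genes were Myh4, at 29850 ± 12030 CPM in KO and 26800 ± 8054 CPM in WT, and Tnnt3, at 19270 ± 4252 CPM in KO and 15430 ± 3608 CPM in WT (SD, n = 4 each).

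**Figure D3:**
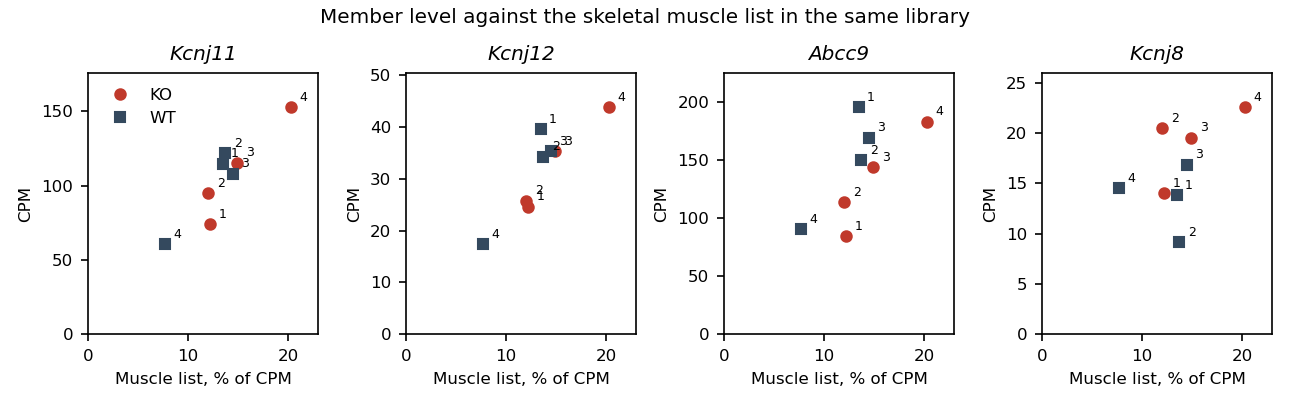
CPM of Kcnj11, Kcnj12, Abcc9 and Kcnj8 against the percent of CPM taken by the 20 skeletal muscle markers in the same library (KO red circles, WT dark squares, numbered by replicate). Kcnj11 and Kcnj12 lie highest in KO replicate 4, at 20.3% muscle, and lowest in WT replicate 4, at 7.67%; Abcc9 of KO lies below Abcc9 of WT at like muscle levels.

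Abcc9 gave lower values in KO when set against muscle RNA. Per 10000 CPM of the muscle list it was at 6.90, 9.42, 9.63 and 9.001 CPM in KO replicates 1 to 4 and at 14.5, 10.9, 11.7 and 11.8 CPM in WT replicates 1 to 4, so that every KO library lay below every WT library. Of all genes tested, 6.41% lay lower in this way on the same quotient, and of the 6 members examined on it Abcc9 was the only one. This quotient was chosen after the values were seen and has no test of its own. Set against the smooth muscle or the pericyte list, Abcc9 overlapped between the groups. Per 100 CPM of the smooth muscle list it was at 14.3 to 23.2 CPM in KO and 22.0 to 26.7 CPM in WT. Per 100 CPM of the pericyte list it was at 17.9 to 32.3 CPM in KO and 20.4 to 33.1 CPM in WT. With the mean log2 CPM of the muscle list in each library as a covariate, edgeR gave Abcc9 a log2 change of -0.50 (SE 0.13, adjusted p = 0.0377), and Abcc9 was the only member called. That fit called 8.72% of all genes, 1522 of 17450, so 1 call among 7 members is near its background. Without both replicates 4 and without the covariate, the log2 fold change of Abcc9 was -0.59 (edgeR adjusted p = 0.105). With the marrow level as a covariate in place of muscle it was -0.21 (edgeR adjusted p = 0.330), and with the trends on exon length and GC content removed -0.10 (edgeR adjusted p = 0.906).

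In the same fit with the muscle covariate the other members did not pass. Abcc8 had a log2 change of -0.73 (SE 0.27; adjusted p in edgeR = 0.119), Kcnj12 of -0.23 (SE 0.13; adjusted p in edgeR = 0.286) and Kcnj11 of -0.17 (SE 0.13; adjusted p in edgeR = 0.437). The standard errors of Kcnj11 and Kcnj12 were 0.26 without the covariate and fell about as far with the marrow level as a covariate, to 0.12 and 0.13, where the log2 fold changes were positive (0.10 and 0.05). The standard error of Abcc9 fell likewise, from 0.27 without a covariate to 0.13 with either the muscle or the marrow level. Kcnj8 had a log2 change of 0.41 (SE 0.21; adjusted p in edgeR = 0.236) and Kcnj2 of -0.06 (SE 0.20; adjusted p in edgeR = 0.872). The part of muscle in the differences between KO and WT was not tested beyond these fits.

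**Figure D4:**
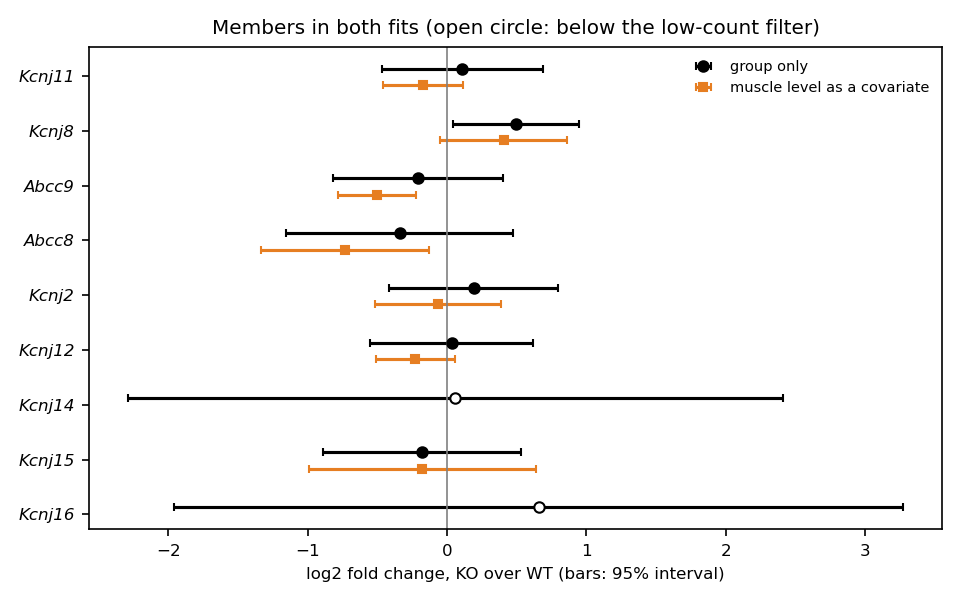
Log2 fold change of each member, KO over WT, with 95% intervals, from the edgeR fit with group alone (black circles, open for the 2 genes below the low-count filter) and with the muscle level as a covariate (orange squares). The interval of Kcnj8 lies above 0 with group alone and reaches -0.05 with the covariate. Those of Abcc9 and Abcc8 lie below 0 only with the covariate.

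Of 16 marker lists, 1 had summed levels that did not overlap between the genotypes. The 7 Schwann cell markers summed to 119 to 149 CPM in KO and 88.4 to 116 CPM in WT (two-sided exact permutation p = 0.0286, the lowest value possible with 4 mice a group; after adjustment over the 16 lists it was 0.457). The 6 adipocyte markers had the next lowest p, with 324 to 818 CPM in KO and 257 to 353 CPM in WT (two-sided exact permutation p = 0.0857), and all 6 had a positive log2 fold change (median 0.63). The 818 CPM came from KO replicate 1, and KO replicates 2 to 4 were at 385, 324 and 416 CPM. Neutrophil markers summed to 812 to 7682 CPM in KO and 1618 to 5650 CPM in WT (two-sided exact permutation p = 0.429), with a positive log2 fold change for 10 of 10 (median 0.49). Other lists leaned the other way. A positive log2 fold change was found for 1 of 7 osteocyte markers (median -0.38) and 2 of 8 osteoblast markers (median -0.20). It was found for 3 of 8 erythroid markers (median -0.31) and 1 of the 4 tested chondrocyte markers (median -0.31). None of the genes in these lists was called. Endothelial markers summed to 616 to 794 CPM in KO and 638 to 723 CPM in WT (two-sided exact permutation p = 1). The part of Schwann cells, adipocytes and endothelial cells in the levels of the 9 genes was not tested.

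For each tested member, the genes with the most similar pattern over the 8 libraries were found by the root mean square difference of mean-centred log2 CPM, among 14647 other genes of at least 1 CPM (14648 for Kcnj15, itself below that level). For Abcc9 these were Rnf150 (0.0475) and Ubr3 (0.0847), and for Kcnj11 Jph2 (0.0551) and Ccnk (0.0797). For Kcnj12 they were Ppp2r3a (0.0745) and Mypn (0.0774). These distances are small beside the SD of log2 CPM over libraries, which was 0.46, 0.43 and 0.44 for the 3 members. The nearest genes were farther off for Kcnj2 (Ehhadh at 0.126 and Bckdha at 0.129), Kcnj15 (Gm16794 at 0.123), Abcc8 (Gdf11 at 0.147 and mt-Atp6 at 0.165) and Kcnj8 (Rnf34 at 0.162 and Art5 at 0.166).

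The rest of the potassium channel genes gave the setting for these 9. Of 75 listed genes, all in the table, 47 were tested. In edgeR 0 were called, where 0.0115% of all genes were. An unadjusted edgeR p under 0.05 was found for 2 with a positive and 3 with a negative log2 fold change, against 18.2% of all genes tested. The median log2 fold change was -0.14, beside -0.01 over all genes tested. DESeq2 called Kcnk5 (adjusted p = 0.0323) and Kcna3 (adjusted p = 0.0299), both with negative log2 fold changes, where it called 6.45% of all genes. With limma-voom 0 of the 47 were called, against 4.04% of all genes.

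Among the inward rectifiers outside the 9, 2 GIRK partners of the deleted subunit were tested and did not pass, and the third, Kcnj6, was below the low-count filter. Kcnj6, which encodes Girk2, had 2, 9, 6 and 2 counts in KO replicates 1 to 4 and 17, 12, 6 and 11 counts in WT replicates 1 to 4, so the groups overlapped. When low counts were kept, edgeR gave Kcnj6 a log2 change of -1.11 (SE 0.58, adjusted p = 0.467), further from 0 than those of the other two. Kcnj3, which encodes Girk1, was at 1.83, 0.588, 0.784 and 1.89 CPM in KO replicates 1 to 4 and between 0.884 and 1.21 CPM in the WT libraries. Kcnj5, which encodes Girk4, was at 8.25, 11.2, 6.59 and 2.42 CPM in KO replicates 1 to 4 and between 3.14 and 11.6 CPM in the WT libraries. The log2 fold changes of Kcnj3 and Kcnj5 were 0.21 (SE 0.39) and 0.22 (SE 0.48), with edgeR adjusted p values of 0.8287 and 0.853. Kcnj10, which encodes Kir4.1, was the only one of the other 4 inward rectifiers that was tested, at 0.949 ± 0.607 CPM in KO and 1.02 ± 0.216 CPM in WT (SD, n = 4 each, edgeR adjusted p = 0.941).

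The K2P leak channels, which also hold the resting potential, had 8 tested genes of 14. Kcnk5 was at 1.09, 1.18, 1.91 and 1.33 CPM in KO replicates 1 to 4 and at 2.20, 2.32, 2.23 and 3.11 CPM in WT replicates 1 to 4. Its groups did not overlap, as for 13.1% of all tested genes (log2 fold change -0.84, SE 0.25, edgeR adjusted p = 0.128). Kcnk3 had a log2 change of 0.68 (SE 0.30; adjusted p in edgeR = 0.272) and Kcnk2 of 0.39 (SE 0.23; adjusted p in edgeR = 0.401). The 10 tested calcium-activated channel genes of 13 held none with an unadjusted p under 0.05. Their smallest p values belonged to Kcnt2 (log2 fold change -0.42), Kcnn4 (-0.38) and Kcnmb1 (0.57), with edgeR adjusted p values between 0.363 and 0.491.

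Of 40 voltage-gated channel genes 26 were tested, with a median log2 fold change of -0.11. Kcna3, the channel best known from lymphocytes, was at 1.16, 2.32, 1.63 and 0.909 CPM in KO replicates 1 to 4 and at 2.58, 4.73, 1.92 and 4.97 CPM in WT replicates 1 to 4 (log2 fold change -1.23, SE 0.38, edgeR adjusted p = 0.139). Kcna6 had a log2 change of 0.72 (SE 0.31; adjusted p in edgeR = 0.251).

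**Figure D5:**
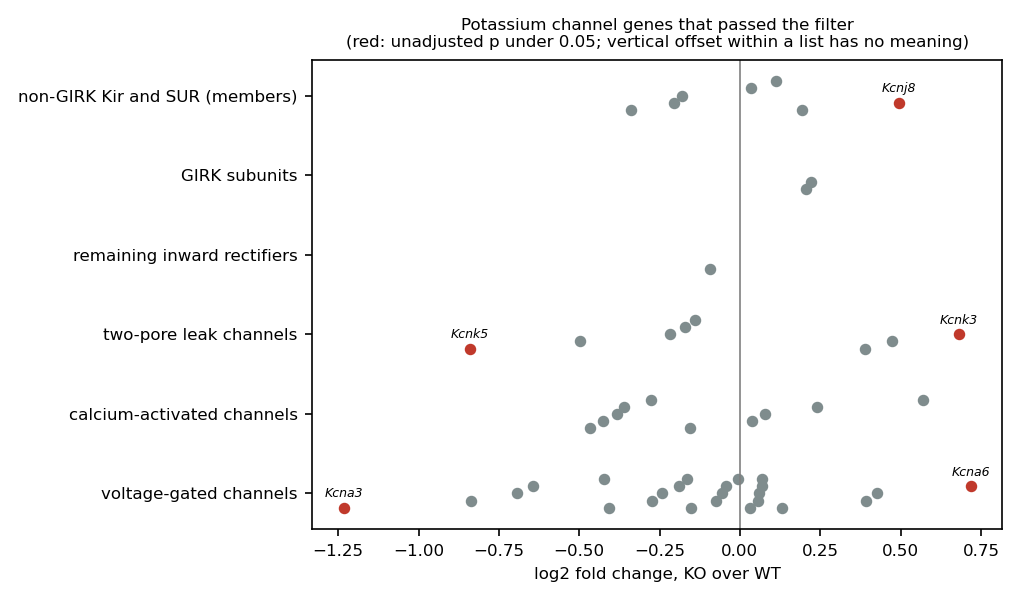
Log2 fold change, KO over WT, of tested potassium channel genes by list, 2 voltage-gated genes not drawn, with genes of unadjusted edgeR p under 0.05 in red and named. Kcnj8 is the only member in red, and the other 4 red genes drawn are Kcnk5, Kcnk3, Kcna3 and Kcna6.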

How the data were processed

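The deposited table gives raw counts of reads for each Ensembl gene and library. The submitters' processing notes name bcl2fastq 2.17, STAR 2.5.2b, featureCounts and Subread 1.5.2, with build mm10. The sources used here give no annotation release, strand setting, read length or rule for multi-mapping reads. Symbols, positions and exon lengths came from GENCODE M21 (GRCm38, the same build), which matched 49056 of 49315 IDs.

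The comparison of KO with WT used edgeR 4.0.16 in R 4.3.3 (glmQLFit, robust, then glmQLFTest), after filterByExpr and TMM, with group as the only term. Standard errors and 95% intervals, unadjusted for the number of genes, were derived from the F statistics. Log2 CPM used a prior count of 2. Alternatives included DESeq2 1.42.0, limma-voom 3.58.1 with sample quality weights, and covariates. The pipeline was tested on simulated data. Marker sums were compared by two-sided exact permutation over 70 arrangements. No 2 libraries were repeats (chi-square per degree of freedom at least 32.4).

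Each library was taken as 1 mouse, as the design text gives 4 mice per genotype. All 9 members were named; of other channel lists, the up to 3 tested genes of smallest p per list and every gene called in the main test; of marker lists, the 2 genes of highest CPM. A few genes that these rules name, and 1 sequence, are not reported here. Members, lists and settings were chosen with earlier results of these data known.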

Additional observations from a re-analysis of the deposited data

Results flagged for a closer look

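Abcc8 at 8.11 CPM in KO replicate 4 stood far above the other 3 KO libraries, which lay between 2.65 and 3.50 CPM; the gap was 0.844 of the whole range of the group. It was the only such value among the 18 groups of 4 libraries examined, and chance alone gives about 1 in 20. Its log2 fold change without that library is given with Abcc8 above. The same library held the most muscle RNA, and the part of that in the value was not tested.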

How the results depend on the processing

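Members called numbered 0 in each setting tried except the muscle covariate, with 1 (Abcc9). Other potassium channel genes called numbered 0 except for DESeq2 (2), the muscle covariate (2) and the marrow covariate (1, Kcna3). All genes called were 2, against 994 with DESeq2, 705 with limma-voom, 71 without a low-count filter, 1522 and 1373 with the muscle and marrow covariates, 458 without both replicates 4, 493 at a threshold of 0.10, and 2 to 4 with 1 library left out (4 without KO replicate 4); the causes were not tested. With the replicate number as a block, 1 gene and 0 members were called. Same-numbered libraries did not deviate together (r of -0.187, -0.166, -0.247 and -0.568), so the numbers were not taken to pair mice.

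Kcnj8, Abcc8 and Abcc9 kept the sign of their log2 fold change in each of 19 settings. Kcnj16 had a value in 1 other setting only (DESeq2, 0.77). The sign of Kcnj2 turned with the muscle covariate (-0.064) and without both replicates 4 (-0.077). That of Kcnj11 turned with limma-voom (-0.064), the muscle covariate (-0.17) and without both replicates 4 (-0.28). That of Kcnj12 turned with limma-voom (-0.13), library totals without TMM (-0.063), the muscle covariate (-0.23), length and GC trends removed (-0.015) and without both replicates 4 (-0.35). With 1 library left out, values ranged from -0.092 to 0.25 for Kcnj11, -0.18 to 0.16 for Kcnj12, -0.33 to 0.42 for Kcnj14, -0.39 to 0.0026 for Kcnj15, 0.04 to 0.39 for Kcnj2 and -0.80 to -0.12 for Abcc8. Without TMM the median of all genes was -0.11, and the member values shift with it. Counts of 0 to 18 per library limit Kcnj14 and Kcnj16.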
